A study of Eurytemora affinis with 15 samples.

Results

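In whole adult males of the copepod Eurytemora affinis, 151 genes followed the concentration of Fatouville elutriate step by step, of 23728 in the table and 16787 with a mean normalised read count of at least 20. They were selected on their normalised counts in the control and Fatouville libraries. For 75 rising genes, all 3 control libraries lay below all 3 libraries at 350 mg/L, and these below all 3 at 2500 mg/L. For 76 falling genes the order was the reverse. Genes for which all 6 Tancarville libraries also lay beyond all controls in the same direction had been left out, which removed 10 of 85 rising and 13 of 89 falling genes in order. The ranking by size, with a limit of 200 genes, removed none. Their differences among Control, Fatouville 350 mg/L and Fatouville 2500 mg/L are therefore given as a description and support nothing by themselves.

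Eurytemora affinis is a small calanoid crustacean that swims in the water column of estuaries, feeds on suspended particles and algae, and meets whatever resuspended sediment releases. An elutriate is the water phase left after sediment has been mixed with water, so it carries dissolved and finely suspended material rather than the bed itself. In ecotoxicology, a response that grows with concentration is a usual criterion for relating a measured change to an exposure.

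The groups were Fatouville elutriate at 350 and 2500 mg/L, Tancarville elutriate at 350 and 2500 mg/L, and a control held in water alone, with 3 libraries each. Every library was made from a pool of 30 adult males collected in the Seine estuary, acclimated at 15 psu and 15 °C on the alga Rhodomonas salina and exposed for 72 h. The chemical content of the elutriates was not analysed here. Between 13639591 and 17212516 reads were assigned to genes per library. Values are normalised read counts, that is reads divided by 1 size factor per library, and log2 values are log2(normalised count + 1), on which the change of a gene with few reads comes out too small. With RNA from whole animals, a change in the number of cells of a type and a change of RNA per cell cannot be told apart. The identifiers are not paired with gene names, products or positions in the sources used here, so genes are given by identifier, functions and tissue markers are not analysed here, and no sequence is shown.

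The rising and falling genes differed in how far they moved. Among the rising genes, 10 were at least 8-fold higher at Fatouville 2500 mg/L than in Control, 2 were 4- to 8-fold, 5 were 2- to 4-fold, 17 had a log2 difference between 0.5 and 1, and 41 one under 0.5. None of the 76 falling genes moved by 4-fold, 3 fell by 2- to 4-fold, 21 by a log2 difference between 0.5 and 1, and 52 by less. The median difference of Fatouville 2500 mg/L minus Control was 0.48 for rising genes (range 0.12 to 7.20) and -0.39 for falling genes (range -1.06 to -0.15) on the log2 scale, beside 0.01 for all 18921 genes tested. Falling genes were the more abundant, with a median mean count of 1019 against 481 in rising genes and 187 over all genes tested. Mean counts of at least 1000 were found in 39 falling and 19 rising genes.

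**Figure D1:**
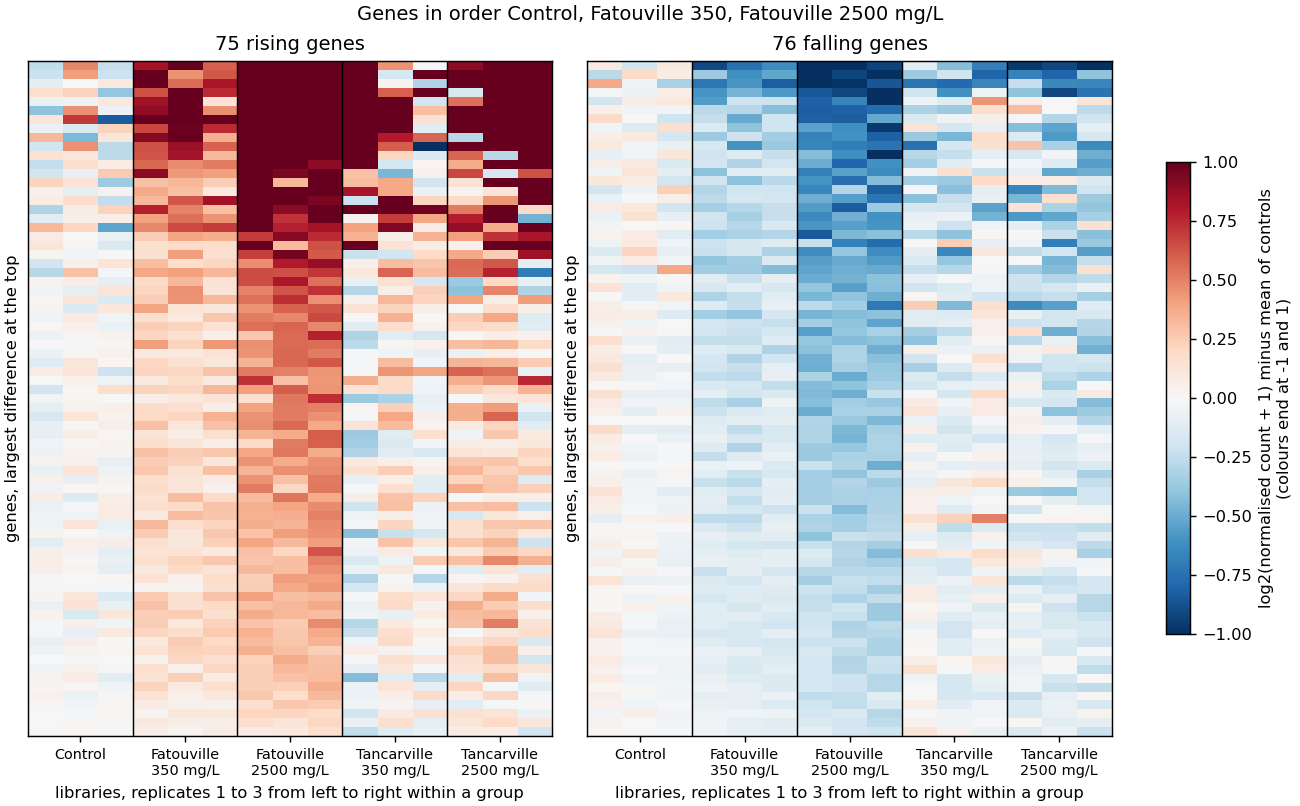
Each row is a gene and each column a library, with the colour giving log2(normalised count + 1) minus the mean of the 3 controls; the colours end at -1 and 1. Control, Fatouville 350 and Fatouville 2500 mg/L are ordered by the choice of genes, while the Tancarville columns were used only to leave genes out. Of the 17 rising genes at the top, 17, 14 and 14 pass the end of the colour scale in Fatouville 2500 mg/L replicates 1, 2 and 3. In Tancarville replicates 1, 2 and 3, 13, 6 and 2 of them do so at 350 mg/L and 6, 13 and 15 at 2500 mg/L.

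The gene with the largest difference, LOC111707417, had 6.57, 11.5 and 6.62 normalised counts in the controls, 15.0, 17.9 and 12.5 at Fatouville 350 mg/L, and 3627, 8923 and 69.0 at Fatouville 2500 mg/L. The libraries at 2500 mg/L therefore spanned more than the gap that separated them from the lower concentration, and replicate 3 stood far below the other 2. Its mean was 4206 ± 4455 at Fatouville 2500 mg/L and 8.22 ± 2.82 in Control (SD, n = 3 each). The log2 difference was 7.20 (SE 2.60, from the fit of all 15 libraries). In the Tancarville libraries the same gene had 970.1, 11.2 and 7.87 at 350 mg/L and 15.7, 565 and 13026 at 2500 mg/L. Its highest value of all 15 libraries was thus in Tancarville 2500 mg/L replicate 3, and replicate 1 of that group stood near the level of Fatouville 350 mg/L.

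LOC111717808, next by size, had 16.9, 26.8 and 17.0 normalised counts in the controls, 47.9, 27.3 and 30.9 at Fatouville 350 mg/L and 7097, 9982 and 128 at Fatouville 2500 mg/L. The Tancarville libraries had 3883, 17.4 and 75.7 at 350 mg/L and 97.4, 1103 and 19665 at 2500 mg/L. As for LOC111707417, replicate 3 was the lowest at Fatouville 2500 mg/L. The highest Tancarville pools were also the same, 350 mg/L replicate 1 and 2500 mg/L replicate 3. Other pools differed, since Fatouville 350 mg/L replicate 2 was the highest of its group for LOC111707417 and the lowest for LOC111717808. For LOC111717808, Control 2 and Fatouville 350 mg/L replicate 2 were separated by less than 1 normalised count. The log2 difference of Fatouville 2500 mg/L minus Control was 6.65 (SE 2.38).

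Among falling genes LOC111705690 had the largest difference, with 54.4, 44.9 and 54.9 normalised counts in the controls, 27.0, 30.1 and 32.8 at Fatouville 350 mg/L, and 24.7, 21.2 and 26.5 at Fatouville 2500 mg/L. Most of the fall was present at the lower concentration, where the log2 difference from Control was -0.76 (SE 0.22), beside -1.06 (SE 0.22) at 2500 mg/L. At Tancarville 350 mg/L it had 47.3, 37.8 and 31.5, and at Tancarville 2500 mg/L 25.7, 26.8 and 23.5, so that the Tancarville groups did not overlap either. Only replicate 1 at Tancarville 350 mg/L, at 47.3, reached the range of the controls.

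LOC111705105 was the more abundant of the pair, with 1578, 2166 and 2002 normalised counts in the controls, 1473, 1241 and 1327 at Fatouville 350 mg/L and 913, 1002 and 852 at Fatouville 2500 mg/L. Its log2 difference was -1.04 (SE 0.15) for Fatouville 2500 mg/L minus Control, and the fall was spread about evenly over the 2 steps. The Tancarville libraries overlapped the range of Fatouville 350 mg/L, at 1472, 1649 and 1092 for 350 mg/L and 1189, 1088 and 1433 for 2500 mg/L.

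**Figure D2:**
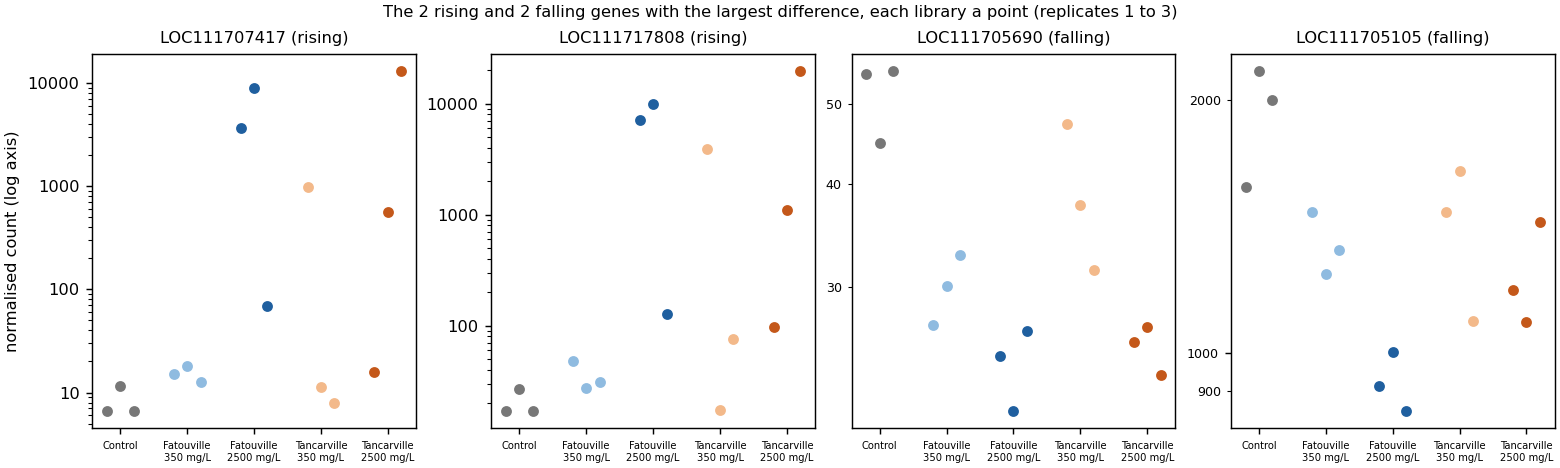
Normalised counts on a log axis for the 2 rising and 2 falling genes with the largest difference, each point a library, with replicates 1 to 3 from left to right. The rising genes span from 69.0 to 9982 within Fatouville 2500 mg/L, whereas the falling genes stay within 21.2 to 26.5 and 852 to 1002 there.

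The rising genes were split by the size of their difference. Taking 2-fold as a dividing line, chosen after the values were seen, 17 genes rose at least 2-fold and 58 less, and the genes on either side of the line had log2 differences of 1.05 and 0.97. In the 17, a median of 21.0% of the whole log2 difference was present at 350 mg/L, and 16 of 17 had less than 50% of it there. In the 58 the median was 45.9%, and in the 76 falling genes 47.6%. These shares are divided by the same difference that drew the line. A lower share in the 17 is favoured by that choice, and nothing is read from it. On the log2 scale the step between the Fatouville concentrations was the larger one in 16 of the 17. It was also the larger in 35 of the 58 and in 51 of the 76 falling genes.

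The median of the 17 strongly rising genes lay -0.07, 0.14 and -0.06 from the control mean in the controls, 0.77, 0.83 and 0.52 above it at Fatouville 350 mg/L, and 4.37, 3.27 and 2.65 above it at Fatouville 2500 mg/L. Together they took 0.0132% to 0.0172% of a control library's reads, 0.0198% to 0.0249% at Fatouville 350 mg/L, and 0.222%, 0.214% and 0.0588% at Fatouville 2500 mg/L. Replicate 1 was the highest of the 2500 mg/L libraries for 10 of the 17 genes, replicate 2 for 6 and replicate 3 for 1. The order of pools was not the same for all of them. The genes ranked 4 to 6 among rising genes had their lowest 2500 mg/L value in replicate 2, at 439, 121 and 132 normalised counts against 1089, 617 and 1032 in replicate 3, whereas the first 3 ranks had it in replicate 3.

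The 58 weakly rising genes were even by comparison. Their median lay 0.19, 0.17 and 0.18 above the control mean at Fatouville 350 mg/L and 0.36, 0.39 and 0.46 above it at Fatouville 2500 mg/L, on the log2 scale. The falling genes lay at -0.16, -0.18 and -0.15 and at -0.37, -0.37 and -0.36. The median SD of a gene within the Fatouville 2500 mg/L group was 0.09 in the 58, 0.08 in the falling genes and 1.24 in the 17, beside 0.23 over all genes tested. A rule that asks 3 groups of 3 libraries not to overlap takes up genes with little spread or with large steps, and these values describe that choice.

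Many of the steps were thin. The gap between the nearest libraries of Control and Fatouville 350 mg/L was below 0.1 on the log2 scale in 57 of 75 rising and 64 of 76 falling genes, and the gap between the Fatouville concentrations was below 0.1 in 41 and 54. Both gaps were at least 0.1 in 12 rising and 6 falling genes. At the threshold on the mean count, the rising gene just inside had a mean of 20.4, with 78.9, 38.2 and 13.8 normalised counts at Fatouville 2500 mg/L and at most 1.91 in the controls. The one just outside had a mean of 17.7, with 29.5, 42.4 and 30.8 at Fatouville 2500 mg/L and 8.45, 6.69 and 13.2 in Control. The falling gene just inside was LOC111705690, at 33.9, and the one just outside had a mean of 11.6, with 6.65, 6.36 and 6.37 at Fatouville 2500 mg/L and 15.95, 21.0 and 24.6 in Control.

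All 151 genes passed the filter on low values of the test across genes (at least 10 normalised counts in at least 3 libraries). In that test, limma's moderated test with Benjamini-Hochberg adjustment over 18921 genes, 2 rising genes and 5 falling genes had an adjusted p below 0.05 for Fatouville 2500 mg/L against Control, where 0.0634% of all genes were called higher and 0.127% lower. The choice of genes used this contrast, so nothing is read from those counts. LOC111705105 and LOC111697404 were among the 7, and LOC111707417, LOC111717808 and LOC111705690 were not. edgeR called 8 of the 151, beside 41 of all 18921 genes. DESeq2 called 110 of the 151, beside 9.43% of all genes it gave an adjusted p. Leaving out 1 library moved the limma count to between 0 (without Control 2 or Fatouville 2500 mg/L replicate 3) and 36 (without Control 3 or Fatouville 2500 mg/L replicate 1), with 1 without Control 1 and 2 without Fatouville 2500 mg/L replicate 2. The calls over all genes moved too, with 860 without Control 3, 566 without Fatouville 2500 mg/L replicate 1, 15 without its replicate 2, 3 without its replicate 3, 11 without Control 1 and 2 without Control 2, beside 36 with every library.

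For the single steps, limma called 0 of the 151 genes for Fatouville 350 mg/L against Control (0.0% of all genes; at an unadjusted p below 0.05, 23 of the 151 beside 4.58% of all genes) and 0 for Fatouville 2500 against 350 mg/L (0.00529% of all genes; at an unadjusted p below 0.05, 59 of the 151 beside 19.8% of all genes). edgeR called 0 in both. DESeq2 called 0 for the first step (0.0424% of all genes) and 16 for the second (5.75% of all genes). The choice of genes used both steps, so nothing is read from these counts either.

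Tancarville elutriate gives values that did not order the genes. The 2 Tancarville concentrations were compared with each other, a contrast that uses neither the controls nor the Fatouville libraries, although the exclusion of genes with all 6 Tancarville libraries beyond the controls did touch these libraries. Rising genes were mostly higher at Tancarville 2500 than at 350 mg/L, and falling genes mostly lower. Of the 75 rising genes 66 had a log2 difference above 0, beside 51.4% of all genes tested, and of the 76 falling genes 61 had one below 0, beside 48.6% of all genes tested. The median differences were 0.18 and -0.09, beside 0.01 over all genes. All genes were measured in the same 6 pools and are not independent, so these counts are no test. By pool, the median of the rising genes lay -0.02, 0.17 and 0.02 from the control mean at Tancarville 350 mg/L. At 2500 mg/L it lay 0.22, 0.29 and 0.14 from it. For falling genes it was -0.06, -0.13 and -0.03, and then -0.09, -0.17 and -0.21. The pool medians of the 2 concentrations thus overlapped in both sets.

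No single gene passed the threshold in this contrast. limma called 0 of the 151 genes and 0 of all 18921 (0.0%). At an unadjusted limma p below 0.05 there were 13 rising genes with higher values (17.3%, beside 2.81% of all genes) and 13 falling genes with lower values (17.1%, beside 2.93%), and none in the opposite directions. edgeR called 0 of the 151 and DESeq2 0, beside 0.0106% of all genes by DESeq2, with 27 of the 151 by edgeR (beside 5.84% of all genes) and 30 by DESeq2 (beside 5.68%) at an unadjusted p below 0.05. Without any overlap between the libraries of both groups there were 17 rising genes with higher values at 2500 mg/L (22.7%, beside 6.67% of all genes) and 12 falling genes with lower values (15.8%, beside 6.69%). All 17 of these rising genes were among the 58 that rose under 2-fold. The 58 and the falling genes also varied less between Tancarville pools than genes at large. Their median within-group SD was 0.14 and 0.10 at 350 mg/L and 0.14 and 0.12 at 2500 mg/L, beside 0.18 and 0.19 over all genes. Genes at large also included ones with mean counts below 20, down to 3.45, which the choice of genes could not take. Mean counts under 100 were found in 6972 of all 18921 genes, beside 9 rising and 6 falling genes. The part of the SD and of abundance in the counts was not tested.

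The 3 genes with the smallest p in this contrast were all weakly rising genes. The first, ranked 53 among rising genes, had 229, 239 and 219.9 normalised counts at Tancarville 2500 mg/L and 153, 176 and 182 at 350 mg/L (log2 difference 0.43, SE 0.11, limma adjusted p = 0.857). The next, ranked 44, had 520.4, 512 and 553 at 2500 mg/L and 386, 439 and 426 at 350 mg/L (log2 difference 0.34, SE 0.09, limma adjusted p = 0.857). The third, ranked 32, had 366, 375 and 340 at 2500 mg/L and 246, 299 and 306 at 350 mg/L (log2 difference 0.35, SE 0.11, limma adjusted p = 0.857). The groups were apart in each, and none of these differences passed after adjustment. LOC111705690 also did not overlap, with a log2 difference of -0.58 (SE 0.22, limma adjusted p = 0.857), and LOC111705105 overlapped (-0.17, SE 0.15, limma adjusted p = 0.89). The opposite order without overlap was found in 1 gene of the 151, the falling gene LOC111697404, named after its values were seen. That is 1.32% of the falling genes, beside 6.67% of all genes. It had 279.8, 208.9 and 208.6 normalised counts at Tancarville 2500 mg/L and 197, 191 and 207.5 at 350 mg/L (log2 difference 0.21, SE 0.17, limma adjusted p = 0.882).

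**Figure D3:**
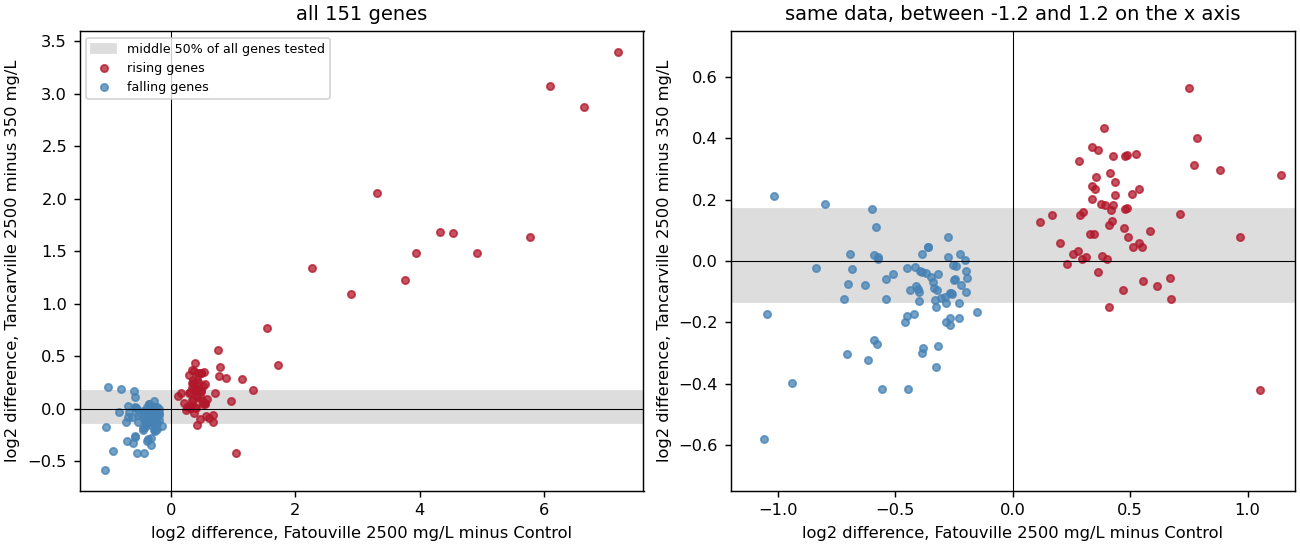
Each point is a gene, with the log2 difference of Fatouville 2500 mg/L minus Control across and that of Tancarville 2500 minus 350 mg/L up, from libraries that are not shared; the panel on the right enlarges the centre, and the grey band holds the middle 50% of all genes tested on the y axis. Points of rising genes lie mostly above 0 on the y axis (66 of 75) and points of falling genes mostly below (61 of 76), many of them inside the band.

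Which pools carried the Tancarville values differed between strongly and weakly rising genes. The median of the 17 lay 3.83, 0.60 and 0.02 above the control mean in Tancarville 350 mg/L replicates 1, 2 and 3, and 0.58, 2.62 and 4.92 above it in Tancarville 2500 mg/L replicates 1, 2 and 3. Tancarville 350 mg/L replicate 1 was the highest of its group for 15 of the 17 genes, and Tancarville 2500 mg/L replicate 3 for 13. The groups overlapped in every one of the 17, and the median within-group SD was 2.00 at 350 mg/L and 2.10 at 2500 mg/L. The 17 took 0.106% of the reads of Tancarville 350 mg/L replicate 1 and 0.354% of those of Tancarville 2500 mg/L replicate 3, against 0.0202% in Tancarville 2500 mg/L replicate 1, which is within the range of Fatouville 350 mg/L.

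The 58 weakly rising genes followed other pools. Their median lay -0.05, 0.14 and 0.02 from the control mean in Tancarville 350 mg/L replicates 1, 2 and 3, and 0.19, 0.25 and 0.05 from it at Tancarville 2500 mg/L. In replicate 1 of Tancarville 350 mg/L and replicate 3 of Tancarville 2500 mg/L, where the 17 stood highest, the 58 stood lowest of their groups. Over the 6 Tancarville libraries the median correlation between pairs of genes was 0.80 within the 17, 0.40 within the 58, 0.28 within the falling genes and 0.02 between the 17 and the 58. These correlations describe 6 libraries that share the concentration difference and are no test. For falling genes the medians were -0.06, -0.13 and -0.03 at Tancarville 350 mg/L and -0.09, -0.17 and -0.21 at Tancarville 2500 mg/L.

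**Figure D4:**
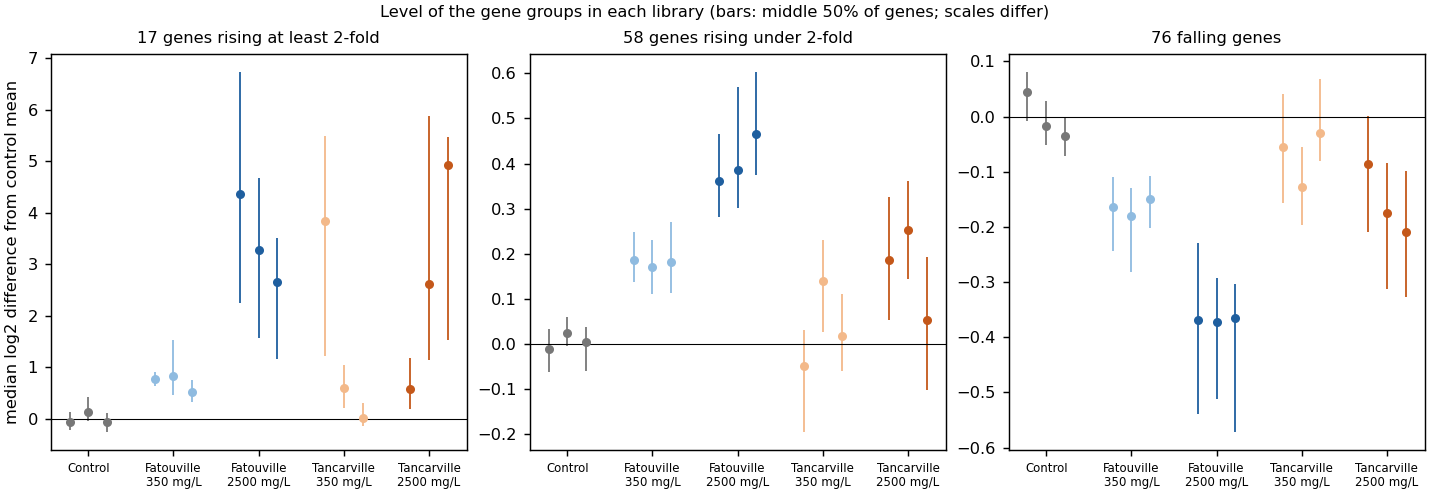
Median log2 difference from the control mean in each library for 17 strongly rising, 58 weakly rising and 76 falling genes, with bars over the middle 50% of genes and a scale of its own in each panel. In the Tancarville groups the 17 are highest in 350 mg/L replicate 1 (3.83) and 2500 mg/L replicate 3 (4.92), the same pools in which the 58 are lowest (-0.05 and 0.05).

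Leaving out these 2 pools together, a choice made after the data were seen, 62 of 75 rising genes had a difference above 0 between the Tancarville concentrations, with a median of 0.19, and 57 of 76 falling genes one below 0, with a median of -0.06. Rising genes at an unadjusted p below 0.05 then numbered 11 (beside 1.45% of all genes) and falling genes 4 (beside 1.72%). The count of 13 falling genes was moved by more than 1.5 times by the loss of any of 4 pools. It was 8 without Tancarville 350 mg/L replicate 1 (beside 1.55% of all genes) or replicate 3 (beside 2.56%), 6 without Tancarville 2500 mg/L replicate 2 (beside 2.41%) and 5 without Tancarville 2500 mg/L replicate 3 (beside 3.06%). The count of 13 rising genes was 20 without Tancarville 2500 mg/L replicate 1 (beside 2.90% of all genes), 21 without replicate 3 of that group (beside 2.92%) and 10 without replicate 2 (beside 2.06%).

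The Tancarville group means were also placed among those of Control and Fatouville. These comparisons share their controls with those that chose the genes and the exclusion used them, so they are given as values. The choice of genes also put Control and Fatouville 2500 mg/L at the ends of the order, which favours a place between them. The share over all genes was not worked out for these positions, and nothing is read from them. At Tancarville 2500 mg/L the group mean lay between those of Fatouville 350 and 2500 mg/L in 37 rising genes, between Control and Fatouville 350 mg/L in 30, beyond Fatouville 2500 mg/L in 2 and not past Control in 6. For falling genes the counts were 39, 32, 0 and 5. At Tancarville 350 mg/L they were 16, 35, 1 and 23 for rising genes and 7, 55, 0 and 14 for falling genes. The median log2 difference from Control was 0.24 for rising and -0.16 for falling genes at Tancarville 2500 mg/L, and 0.06 and -0.06 at Tancarville 350 mg/L, beside -0.02 and -0.01 over all genes.

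limma called 0 of the 151 genes against Control at Tancarville 2500 mg/L (0.0211% of all genes) and 0 at Tancarville 350 mg/L (0.0159%), with 43 of the 151 (beside 7.96% of all genes) and 6 of the 151 (beside 3.85%) at an unadjusted p below 0.05. edgeR called 0 at each, beside 3 of all 18921 genes at each. DESeq2 called 12 at Tancarville 2500 mg/L (1.18% of all genes) and 1 at Tancarville 350 mg/L (0.151%). At Tancarville 350 mg/L DESeq2 gave an adjusted p to 66 of the 75 rising and 70 of the 76 falling genes only. The exclusion bears on these counts, since genes with all 6 Tancarville libraries beyond the controls are not among the 151. How near the others came to it varied. Of the rising genes 16 had 5 Tancarville libraries beyond all controls, 31 had 4, 15 had 3, 9 had 2 and 4 had 1. Of the falling genes 23 had 5, 23 had 4, 14 had 3, 11 had 2, 3 had 1 and 2 had 0. The share over all genes was not worked out for these counts. The choice of genes put the controls at one end of the order, which favours other libraries beyond them, so nothing is read from these counts. The 10 rising genes left out had a median log2 difference of Fatouville 2500 mg/L minus Control of 4.63 (range 0.60 to 8.52), and the 13 falling genes left out one of -0.71 (range -2.55 to -0.40).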

How the data were processed

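Per the labels' protocols, an mRNA kit was used on 200 ng of RNA per pool. STAR, Salmon, DESeq2 and HTSeq 0.11.2 are listed, with no roles, in the submitters' processing notes; genome build, annotation and strand are unstated (not given in the sources used here). As deposited, the values are a signal, gene counts divided by 1 size factor per library by the authors; divided by the worth of 1 read, 100% of them came out whole within 1e-06, so reads were recovered. Cook's distance, a score the authors also deposited for each value, entered no test. limma 3.58.1 (R 4.3.3) was fitted to log2(value + 1) of the 15 libraries together, with 1 mean per group and moderation that was robust and followed the intensity trend, and 2-sided p-values were adjusted over 18921 genes. It was also run on simulated counts, with the same spread for all genes and no deviating pools. That run does not show how the test performs on the small differences and uneven pools here. edgeR 4.0.16 and DESeq2 1.42.0 were run on recovered reads. Reads shared between near-identical or overlapping genes could have gone to either.

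The genes and the tests were chosen with earlier results of these data known. Without gene names, the named genes were the 2 rising and 2 falling genes with the largest difference; genes beside a threshold are given without identifier. The lists of products matched no identifier and were not used. The labels call the pools biological replicates. The limma p-values and SEs set a difference against the spread between pools, estimated once per gene over all 5 groups. In the 17 this spread was uneven, with a median SD of 0.27 in Control and 2.10 at Tancarville 2500 mg/L. Deviations of same-numbered pools from their group means correlated at 0.186, 0.167 and 0.428 for Tancarville 2500 mg/L and Control, all above 0.1, and in no other pair of groups compared; the replicate block left the count for that comparison at 0 genes.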

Additional observations from a re-analysis of the deposited data

Results flagged for a closer look

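LOC111697404 had opposite orders of the 2 concentrations at the 2 sites, at Tancarville by a narrow gap. It was lower in every Fatouville 2500 mg/L library (142, 165 and 180.4 normalised counts) than in every Fatouville 350 mg/L library (199, 218 and 185), by the choice of genes. At Tancarville it was higher in every 2500 mg/L library (279.8, 208.9 and 208.6) than in every 350 mg/L library (197, 191 and 207.5). The nearest of these, 208.6 and 207.5, were almost level, and replicate 1 at 2500 mg/L stood apart. Such an order without overlap was found in 1 of 76 falling genes (1.32%), beside 6.67% of all genes. The Tancarville log2 difference was 0.2133 (SE 0.17, limma adjusted p = 0.882). The difference between the sites was not tested, since the Fatouville values chose the gene.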

How the results depend on the processing

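The number of genes in order was 148 with TMM scaling (135 of the 151 among them), 155 and 143 with mean counts of at least 10 and 50, and 174 without the Tancarville condition. With 1 library left out it ranged from 182 to 421, since 8 libraries are easier to order than 9. It passed 1.5 times the count without Control 3 (421), without Fatouville 350 mg/L replicate 1, 2 or 3 (265, 390 and 356) and without Fatouville 2500 mg/L replicate 1 (235). The count of the 151 called for Fatouville 2500 mg/L against Control was 7, 8 by edgeR, 110 by DESeq2, and 0 to 36 with 1 library left out. For Fatouville 2500 against 350 mg/L it was 0, 16 by DESeq2, 2 in a fit of these 2 groups alone (202 over all genes), and 0 to 6 with 1 library left out (6 without Fatouville 2500 mg/L replicate 1, with 1103 over all genes). Against Control it was 12 by DESeq2 at Tancarville 2500 mg/L. At Tancarville 350 mg/L it was 1 by DESeq2 and 1 in a fit of the 2 groups (6 over all genes in that fit). The cause was not tested. With the replicate block the count for Fatouville 2500 mg/L against Control was 1 in place of 7 (10 in place of 36 over all genes). It stayed at 0 in the other comparisons, although for Fatouville 2500 against 350 mg/L the block moved the count over all genes from 1 to 189. For Tancarville 2500 against 350 mg/L the same-numbered pools correlated negatively in their deviations (-0.531, -0.127 and -0.436), and 0 of 6 libraries correlated best with their own number. The median Tancarville difference ranged from 0.16 to 0.23 for rising and from -0.13 to -0.06 for falling genes with 1 library left out. Falling genes at an unadjusted p below 0.05 there numbered 5 in place of 13 in a fit of these 2 groups alone (beside 3.41% of all genes, in place of 2.93%). Genes with few reads, such as LOC111705690 with 71 reads over the 3 libraries at Fatouville 2500 mg/L, are limited by counting error.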
